A study of Homo sapiens with 24 samples.

Results

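The genes described here encode the proteasome: its subunits, the particles that activate or inhibit it, and the chaperones that assemble it. They were taken by name, as the protein-coding genes of the A549 table whose symbols start with PSMA, PSMB, PSMC, PSMD, PSME, PSMF or PSMG and hold no hyphen. This rule found 49 genes of the 19817 protein-coding genes and 58302 genes in the table, and it used no measured value. One of them, PSMC3IP, a partner of recombinases in homologous recombination, was taken by its name alone and is not a proteasome gene. The libraries came from A549, an established human lung adenocarcinoma cell line, and were made from polyadenylated RNA. Cells carried a lentivirus with GPD1, the cytosolic enzyme that interconverts dihydroxyacetone phosphate and glycerol 3-phosphate, or a blank lentiviral vector, and each kind of cell was grown with 10 mM metformin or without it. The 4 groups held 3 libraries each: vector untreated, vector with metformin, GPD1 untreated and GPD1 with metformin. All 4 groups had therefore been transduced, and the labels give neither the length of the metformin treatment nor whether the cells were single clones. The labels do not say whether replicate libraries stem from independent cultures, and the p-values therefore reflect only how these libraries vary, which may be technical.

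The proteasome is the protease that degrades proteins tagged with ubiquitin. Its 20S core is a stack of rings, with alpha rings that gate the entrance and beta rings that carry the caspase-like, trypsin-like and chymotrypsin-like sites of PSMB6, PSMB7 and PSMB5. The 19S cap binds the core, and within it a base with an ATPase ring unfolds substrates while a lid removes ubiquitin through PSMD14. Cells exposed to interferon exchange the catalytic subunits for PSMB9, PSMB10 and PSMB8, which form the immunoproteasome, and PSME1 and PSME2 form the 11S activator that often caps it. The transcription factor NFE2L1, released by the protease DDI2, drives subunit genes through antioxidant response elements.

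The libraries held an implied 13300000 to 18000000 reads each, worked out from the steps between low FPKM values, so that 1 read on 1 kilobase of exon was worth 0.0556 to 0.0753 FPKM. These depths are estimates, since 64.5% to 69.3% of low values lay within 0.02 of a whole number of reads. GPD1 was at 0.0248 to 0.103 FPKM in the 6 vector libraries, at 15.1 to 16.8 in the untreated GPD1 libraries and at 13.3 to 13.8 in the GPD1 libraries with metformin, as labelled. Mitochondrially encoded genes took 30.2% to 33.2% of all FPKM without metformin and 10.3% to 14.9% with it, so every level relative to the total depends on how the libraries are scaled. Of 8 markers of lung adenocarcinoma epithelium, 4 or 5 averaged at least 1 FPKM in each group, and the 8 summed to 405.9 to 572 FPKM. Among them NKX2-1, SFTPB and SFTPC were near 0 in every library, at no more than 0.0683 FPKM. Of 4 kidney markers, 2 or 3 averaged at least 1 FPKM in each group, and the 4 summed to 3.858 to 6.853 FPKM.

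Of the 49 genes, 47 averaged at least 1 FPKM over the 12 libraries and were tested. The remaining members were PSMA8, an alpha subunit of the testis, listed at 0 in all 12 libraries, and PSMB11, the thymus beta subunit, whose highest value was 0.0541 FPKM. Every tested member had at least 45 implied reads in every library, and 45 of the 47 had at least 100. Over the 188 combinations of a tested member and a group, the median coefficient of variation was 5.08%. It passed 20% in 5 of them: PSME3 in 3 groups, PSMF1 in GPD1 cells with metformin and PSMD10 in vector cells with metformin. Symbols, identifiers and positions are those of the deposited table, on GRCh38.

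The FPKM levels, which are per length of exon, spread widely within each part of the particle in untreated vector cells. The 7 tested alpha subunits ran from PSMA6 at 7.24 FPKM to PSMA7 at 79.0, a 10.9-fold range. The 7 constitutive beta subunits lay between PSMB2 at 15.7 FPKM and PSMB7 at 62.6. Among the 6 ATPases, PSMC1 averaged 3.5 FPKM, with 77.2% to 83.1% of the reads on it and its named copies assigned to the copies, and the others ran from PSMC6 at 4.76 to PSMC4 at 43.7, a 9.18-fold range. The 8 lid subunits spanned PSMD6 at 4.61 FPKM to PSMD3 at 33.0. The 3 immunoproteasome subunits were close together and low, from PSMB10 at 3.31 FPKM to PSMB9 at 3.8. Subunits that the assembled particle holds in equal numbers thus differed severalfold in FPKM within a role. These ranges depend on the exon length by which FPKM divides, for example 1750 bases for PSMA7 and 6506 for PSMA6. The median implied reads per library of these 2 genes were 2305 and 1188. All 49 members together summed to 836.8 to 859.6 FPKM in untreated vector cells, or 0.285% to 0.293% of the total.

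**Figure D1:**
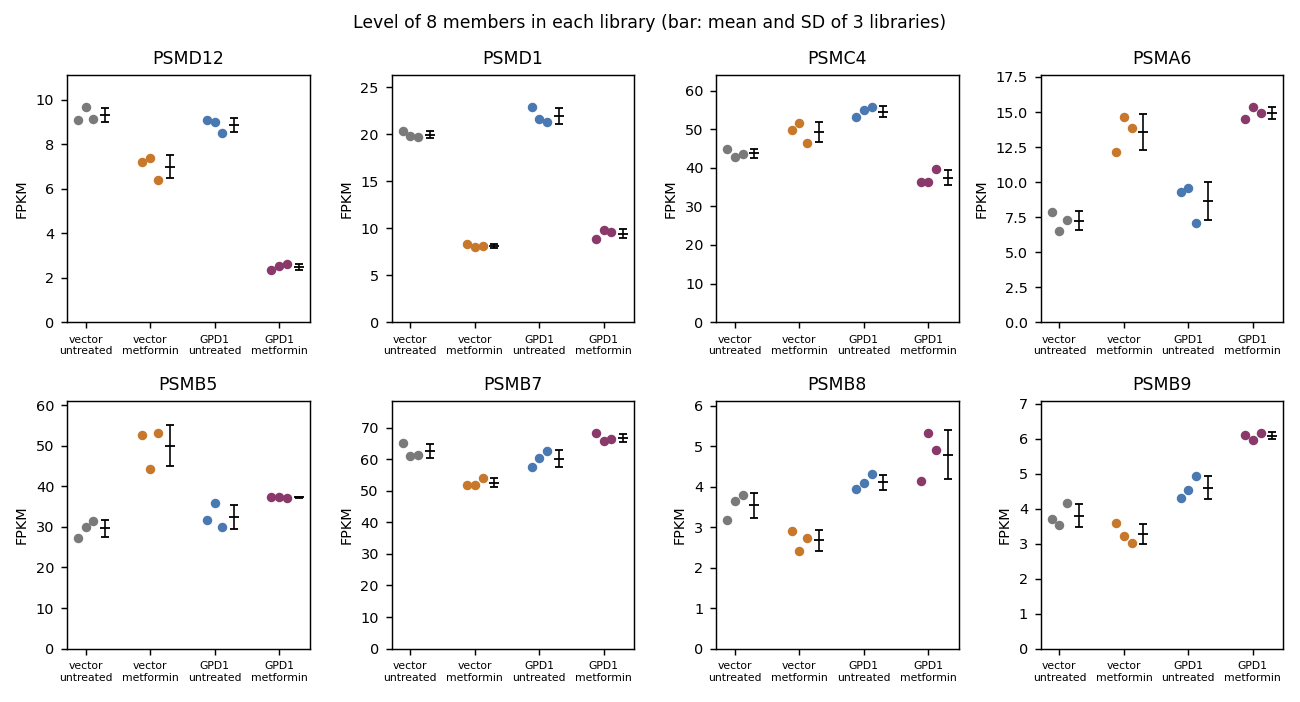
FPKM (y axes) of 8 proteasome genes in the 4 groups; each point is 1 library and each bar gives the mean and SD of 3 libraries. PSMD12 sat at 2.35 to 2.61 in GPD1 cells with metformin, below every other library, and PSMB5 was highest in vector cells with metformin.

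Promoter sequence was taken from RefSeq (GRCh38.p14), which held windows for 43 of the 49 members. It is shown for 5 of the genes whose values carry the comparisons that follow. Each line gives the 250 bases before the annotated start of transcription. Capitals mark TGACNNNGC, the core of the antioxidant response element, or CCAAT, the box bound by NF-Y, on either strand. The windows are chr17:67366578-67366827 (minus strand) for the lid subunit PSMD12, chr14:24135944-24136193 (plus) and chr14:24146611-24146860 (minus) for the 11S genes PSME1 and PSME2, chr6:32853942-32854191 (plus) for PSMB9, and chr14:23035221-23035470 (minus) for PSMB5, the first of 2 starts listed for that gene.
PSMD12: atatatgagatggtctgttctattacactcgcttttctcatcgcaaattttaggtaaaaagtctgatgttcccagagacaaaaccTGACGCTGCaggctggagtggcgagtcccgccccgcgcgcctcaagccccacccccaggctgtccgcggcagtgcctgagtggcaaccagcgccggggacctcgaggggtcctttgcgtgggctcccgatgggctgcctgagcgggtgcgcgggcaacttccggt
PSME1: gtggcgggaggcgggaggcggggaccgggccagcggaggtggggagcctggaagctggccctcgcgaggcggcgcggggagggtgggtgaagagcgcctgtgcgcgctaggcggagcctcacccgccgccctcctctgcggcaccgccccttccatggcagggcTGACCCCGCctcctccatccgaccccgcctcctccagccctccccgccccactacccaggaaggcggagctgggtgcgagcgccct
PSME2: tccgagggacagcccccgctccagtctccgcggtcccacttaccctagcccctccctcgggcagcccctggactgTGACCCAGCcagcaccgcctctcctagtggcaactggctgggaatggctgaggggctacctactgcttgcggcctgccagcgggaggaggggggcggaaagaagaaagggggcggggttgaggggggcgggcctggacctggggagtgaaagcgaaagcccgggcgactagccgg
PSMB9: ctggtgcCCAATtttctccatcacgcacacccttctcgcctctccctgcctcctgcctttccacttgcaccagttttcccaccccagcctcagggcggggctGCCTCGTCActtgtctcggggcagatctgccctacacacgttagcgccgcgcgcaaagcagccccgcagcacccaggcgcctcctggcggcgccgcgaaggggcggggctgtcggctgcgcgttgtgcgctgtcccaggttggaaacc
PSMB5: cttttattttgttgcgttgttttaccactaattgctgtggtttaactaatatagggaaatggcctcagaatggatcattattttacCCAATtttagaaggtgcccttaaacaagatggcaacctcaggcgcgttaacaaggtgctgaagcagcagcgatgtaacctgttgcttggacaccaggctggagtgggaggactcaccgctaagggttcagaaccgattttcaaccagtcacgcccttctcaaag
PSMD12, PSME1 and PSME2 hold TGACNNNGC on the gene's own strand, with its first base 165, 86 and 175 bases before the start. PSMB9 holds it on the other strand, 148 bases before the start, and also CCAAT at 243 bases. PSMB5 holds CCAAT at 164 bases and no TGACNNNGC in this window. The windows printed do not stand for all members with large changes, since PSMA3, PSMA6 and PSMC3 hold no TGACNNNGC.

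Over windows that ran from 250 bases before the start to 50 after it, TGACNNNGC was found in 15 of the 43 member genes (34.9%), against 16.1% of 27305 genes in the table. CCAAT was found in 21 of the 43 (48.8%), against 39.7%. By role, TGACNNNGC lay in 3 of the 5 activator and inhibitor genes, 2 of 3 base chaperones and 2 of 3 chaperones of 20S assembly. It lay in 1 of 2 base subunits without ATPase activity, 2 of 6 ATPases and 2 of 8 lid subunits. In the rings it lay in 1 of 4 constitutive beta, 1 of 4 immunoproteasome and thymus beta and 1 of 7 alpha subunits. The 7 alpha subunits with windows include PSMA8 and lack PSMA7. No member's TGACNNNGC overlapped TGANTCA, the related AP-1 site. A match of letters is a description of these windows and not a binding site.

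In vector cells, most of the proteasome genes that changed with metformin were lower. Of the 47 tested, 29 were lower and 9 higher at an adjusted p under 0.05 (limma, Benjamini-Hochberg), with a median log2 difference of -0.25 on the log2(FPKM + 1) scale. Over all 12607 genes tested, 74.6% passed in either direction, 43.3% lower and 31.3% higher, and the median was -0.10. The 3 treated libraries did not overlap the 3 untreated ones for 39 members, and the same held for 76.6% of all genes. The split between directions moved with the scaling. Median-ratio scaling, which shifted the all-gene median to 0.10, gave 13 lower and 15 higher; scaling to totals without mitochondrial genes, with a median of -0.40, gave 37 lower and 2 higher. Of the called members, 13 of the 29 lower and 2 of the 9 higher kept their call under all 22 alternatives. The 13 were PSMA3, PSMA4, PSMB2, PSMC2, PSMC3, PSMC3IP, PSMD1, PSMD2, PSMD4, PSME3, PSME4, PSMG1 and PSMG4, and the 2 were PSMA6 and PSMB5. Since these are bulk libraries, less RNA per cell and fewer cells of a kind cannot be told apart.

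In the alpha ring, PSMA3 showed the largest fall. Its FPKM was 14.7, 14.5 and 14.1 in untreated vector cells and 6.75, 6.98 and 5.44 with metformin. Every treated library was below every untreated one, and the means differed 2.26-fold (log2 -1.07 ± 0.08 SE, limma adjusted p = 3.01e-07). PSMA6 moved the other way, from 7.88, 6.54 and 7.30 FPKM to 12.2, 14.7 and 13.8. It was 1.87-fold higher in the treated libraries, with no overlap (limma adjusted p = 3.00e-05). PSMA1, PSMA4 and PSMA5 also fell, so that 4 of 7 alpha genes were lower and 1 higher, while PSMA2 and PSMA7 did not pass (log2 -0.03 and 0.03).

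In the beta ring, the chymotrypsin-like subunit PSMB5 (ENSG00000100804, chr14:23016543-23035230) rose. Its FPKM was 27.3, 30.03 and 31.5 without metformin and 52.8, 44.3 and 53.1 with it. The treated libraries were all higher, at 1.69-fold (log2 0.74 ± 0.08 SE, limma adjusted p = 1.16e-05). The other catalytic subunits fell: PSMB6 from 38.6 ± 1.52 to 31.1 ± 0.89 FPKM and PSMB7 from 62.6 ± 2.35 to 52.6 ± 1.34 (SD, n = 3), with limma adjusted p-values of 0.000250 and 0.000339. Both calls were lost with median-ratio scaling, under which the log2 differences were -0.06 and 0.00, whereas that of PSMB5 ranged from 0.39 to 0.98 over the alternatives and passed in each. PSMB2 had the largest fall in this ring, from 15.8, 15.4 and 15.7 FPKM to 8.79, 10.6 and 9.34, or 1.63-fold. All 3 treated libraries were below the untreated ones (limma adjusted p = 0.00012). PSMB1 rose by 0.22 and PSMB3 and PSMB4 fell by 0.32 and 0.20 on the log2 scale, making 5 of 7 beta genes lower and 2 higher.

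The 3 immunoproteasome subunits were lower in vector cells with metformin. PSMB8, the inducible counterpart of PSMB5, was at 3.18, 3.65 and 3.79 FPKM in untreated cells and fell to 2.90, 2.40 and 2.72. The groups did not overlap, at 1.32-fold lower (limma adjusted p = 0.00744). PSMB9 fell by 0.17 and PSMB10 by 0.22 on the log2 scale (limma adjusted p = 0.0422 and 0.0174). With median-ratio scaling none of the 3 passed, and PSMB9 stood at 0.03; PSMB9 also lost its call in 13 of 22 alternatives. The summed level of 8 leukocyte markers was also lower, at 1.17 to 1.43 FPKM untreated and 0.402 to 0.541 with metformin, and its part in these values was not tested.

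In the 19S cap, 11 of the 17 subunits taken by name were lower and 4 higher, with a median log2 difference of -0.35. ADRM1 and SEM1, cap subunits with other names, are in none of the cap counts, sums or ratios given here. Under median-ratio scaling 5 were lower and 5 higher and the median was -0.10, which is 0.20 below the all-gene median of 0.10. PSMD1 (ENSG00000173692, chr2:231056864-231172827), the large scaffold subunit of the base, was at 20.4, 19.8 and 19.7 FPKM without metformin and at 8.35, 7.95 and 8.07 with it. The treated libraries lay far below the untreated ones, at 2.46-fold lower (log2 -1.20 ± 0.05 SE, limma adjusted p = 2.40e-09). The other base subunits without ATPase activity also fell, PSMD2, which docks ubiquitin-like shuttle proteins, by 0.62 and the ubiquitin receptor PSMD4 by 0.57 on the log2 scale. These 3 calls were kept under all 22 alternatives.

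Among the ATPases, PSMC3 was at 31.9, 28.7 and 26.9 FPKM and fell to 15.6, 15.7 and 14.8. PSMC2 went from 15.7, 14.8 and 13.8 to 9.77, 9.86 and 7.91. Both were lower in every treated library, 1.90-fold and 1.61-fold (limma adjusted p = 4.14e-07 and 1.69e-05). PSMC6 rose from 4.76 ± 0.09 to 6.39 ± 0.32 FPKM and PSMC4 from 43.7 ± 1.09 to 49.3 ± 2.61 (SD, n = 3). PSMC4's value was -0.18 on the log2 scale with totals that left out mitochondrial genes, and PSMC6 was no longer called there, at 0.06. In the lid, 4 of 8 subunits fell, PSMD3, PSMD11, PSMD12 and PSMD14, by 0.31 to 0.43 on the log2 scale, and PSMD6 and PSMD8 rose, by 0.41 and 0.30.

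Of the chaperones, PSMG3 rose from 14.1 ± 0.44 to 19.9 ± 1.61 FPKM (SD, n = 3) and its neighbours in 20S assembly, PSMG1 and PSMG4, fell by 0.50 and 0.53 on the log2 scale. By mean FPKM over the 12 libraries PSMG4 was the lowest tested member, though not by implied reads. It was at 1.35 to 1.49 FPKM without metformin and 0.677 to 0.701 with it. The treated libraries did not overlap the untreated ones. PSMD5, a chaperone that holds an ATPase intermediate of the base, fell by 0.30, and the other base chaperones, PSMD9 and PSMD10, did not pass (log2 0.14 and 0.10).

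Among the particles that cap the core in place of 19S, PSME4, the nuclear activator known as PA200, fell from 7.64 ± 0.38 to 5.68 ± 0.68 FPKM (SD, n = 3, limma adjusted p = 0.000354). PSME1 rose by 0.17 (limma adjusted p = 0.0152), a value that was -0.17 with totals without mitochondrial genes. PSME3, the nuclear activator PA28 gamma, was uneven between libraries, at 5.06, 4.27 and 12.4 FPKM without metformin and 1.25, 1.31 and 1.33 with it. The untreated libraries were all higher but differed among themselves by more than any other member (log2 -1.71 ± 0.40 SE, limma adjusted p = 0.00248). PSME2 and PSMF1, an inhibitor of the core, did not pass (log2 -0.17 and 0.34, limma adjusted p = 0.0507 and 0.0972). PSMC3IP fell from 2.33 ± 0.16 to 1.16 ± 0.08 FPKM (SD, n = 3).

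**Figure D2:**
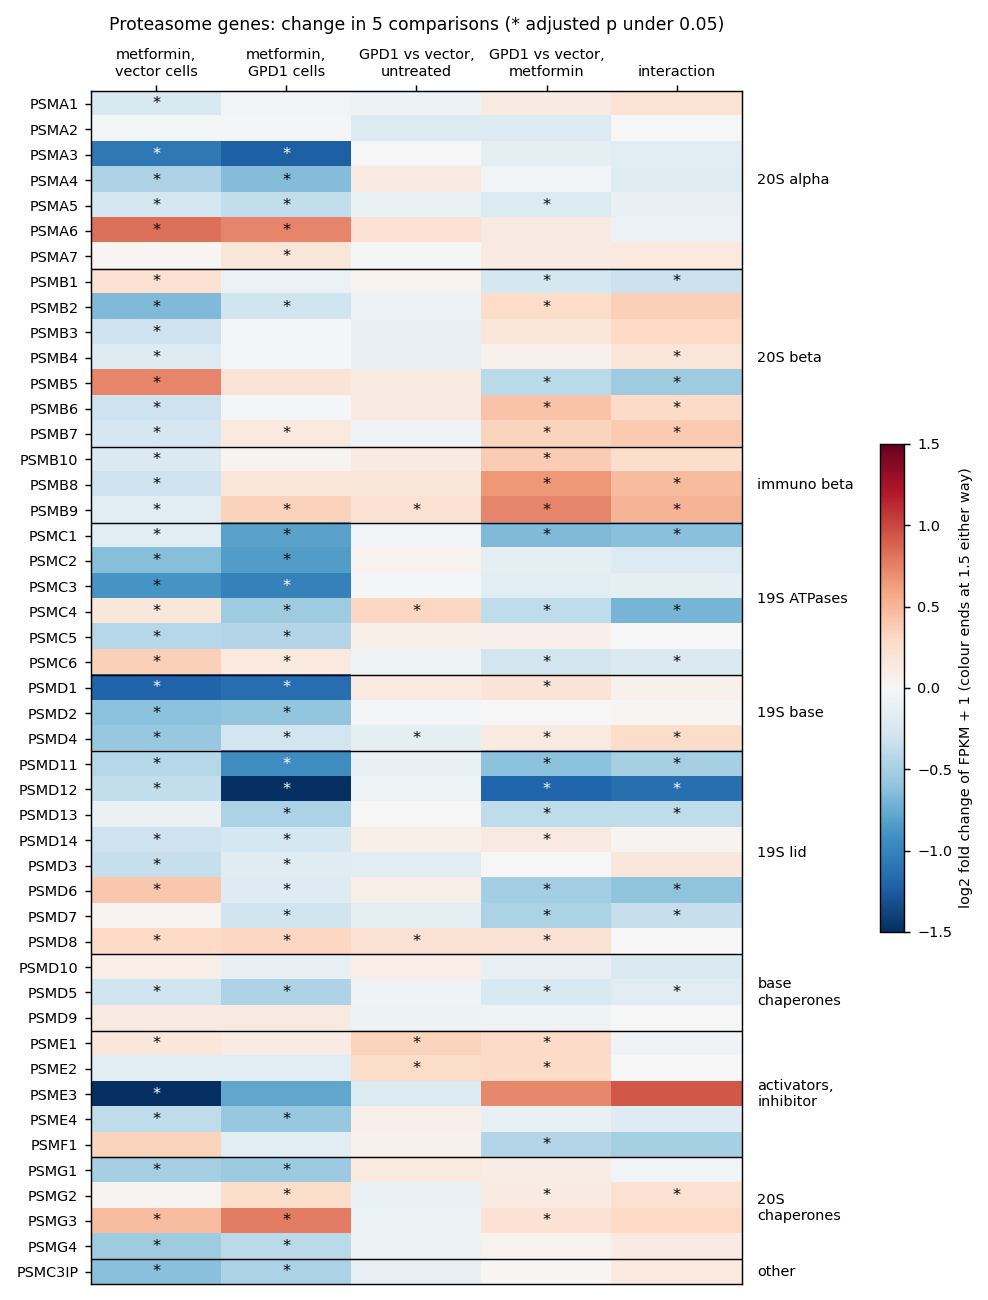
Log2 fold change of FPKM + 1 for the 47 tested genes (rows, by role) in the 5 comparisons (columns), red for higher and blue for lower, with an asterisk at a limma adjusted p under 0.05. In GPD1 cells with metformin 15 of 17 cap subunits are blue with an asterisk, against 4 of 14 core subunits.

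Metformin in GPD1 cells changed the cap and the core differently in count. Of 17 cap subunits 15 fell and 2 rose, with a median of -0.48, while of 14 core subunits 4 fell and 3 rose, with a median of -0.02. Over the 47 members 24 were lower and 8 higher with a median of -0.19, and over all genes 74.2% passed, 48.0% lower and 26.1% higher, with a median of -0.20. The groups did not overlap for 37 members, against 77.1% of all genes. The majority direction over the members depended on the scaling, with 16 lower and 19 higher under median-ratio scaling, 20 and 13 under upper-quartile scaling, and 39 and 2 with totals without mitochondrial genes. Calls were kept under all 22 alternatives by 16 of the 24 lower and, of the 8 higher, by PSMA6 and PSMG3. Under median-ratio scaling the cap had 9 lower and 2 higher at a median of -0.19 and the core 2 lower and 10 higher at 0.29, with the all-gene median at 0.07. With totals without mitochondrial genes the cap had 16 lower and the core 12 lower, at medians of -0.79 and -0.38, against -0.48 for all genes. The core's direction thus depended on the scaling, and the cap had more members lower than higher under each.

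PSMD12 (ENSG00000197170, chr17:67337916-67366627), a scaffold subunit of the lid, showed the largest fall of any member in this comparison. Its FPKM was 9.09, 8.98 and 8.50 in untreated GPD1 cells and 2.35, 2.54 and 2.61 with metformin. The treated libraries were well below the untreated ones, at 3.54-fold lower (log2 -1.49 ± 0.06 SE, limma adjusted p = 3.47e-09). In vector cells the same gene went from 9.10, 9.68 and 9.14 to 7.21, 7.39 and 6.40 FPKM, 1.33-fold lower, a call that was lost with median-ratio scaling (log2 -0.14, limma adjusted p = 0.057). PSMD11, which neighbours it in the lid, was at 15.02, 15.2 and 14.2 FPKM and fell to 5.69, 8.34 and 8.10. It was lower in each treated library, at 2.01-fold (limma adjusted p = 3.46e-05). PSMD3, PSMD6, PSMD7, PSMD13 and the deubiquitinase PSMD14 fell by 0.18 to 0.48 on the log2 scale, and PSMD8 alone in the lid rose, from 35.8 ± 0.73 to 44.4 ± 0.89 FPKM (SD, n = 3). PSMD3 kept its call in 11 of 22 alternatives and lost it without any 1 of the 6 GPD1 libraries, and PSMD6 and PSMD7 lost theirs with median-ratio and upper-quartile scaling.

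In the base, PSMD1 was again lower, from 22.9, 21.7 and 21.3 FPKM to 8.87, 9.81 and 9.59. Treated and untreated libraries did not overlap, at 2.33-fold (limma adjusted p = 5.08e-09). PSMC3 went from 30.5, 28.2 and 27.2 to 13.5, 13.1 and 14.4 FPKM, 2.09-fold lower with no overlap. PSMC1, PSMC2, PSMC4 and PSMC5 fell by 0.44 to 0.84 on the log2 scale, and PSMC6 rose by 0.15 (limma adjusted p = 0.0149), which was -0.16 with totals without mitochondrial genes.

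In the core, PSMA3 fell from 15.3, 14.1 and 14.0 FPKM to 5.75, 5.89 and 5.27. All treated libraries were lower, at 2.57-fold (log2 -1.22 ± 0.08 SE, limma adjusted p = 1.21e-07). PSMA6 rose from 9.29, 9.56 and 7.06 to 14.5, 15.4 and 14.96 FPKM, 1.73-fold higher and again without overlap. PSMA7 rose by 0.19 (limma adjusted p = 0.00695) and PSMA4 and PSMA5 fell. In the beta ring PSMB7 rose by 0.15 and PSMB2 fell by 0.30, while the others did not pass, including PSMB5 at 31.7, 35.9 and 30.1 FPKM without metformin and 37.4, 37.4 and 37.2 with it (log2 0.20, limma adjusted p = 0.0526), although the treated libraries were all higher. PSMB5 passed in 7 of the 22 alternatives, among them median-ratio scaling. PSMB7 stood at -0.22 with totals without mitochondrial genes (limma adjusted p = 0.00109), and the PSMB2 groups overlapped, with its call lost in 7 of 22 alternatives.

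Among the 3 immunoproteasome genes PSMB9 rose, from 4.31, 4.55 and 4.95 FPKM to 6.12, 5.97 and 6.16. Every treated library was higher, at 1.32-fold (log2 0.34 ± 0.07 SE, limma adjusted p = 0.000875), and the call was lost with totals without mitochondrial genes, at 0.03. PSMB8 and PSMB10 did not pass (log2 0.18 and 0.05). PSMG3 rose from 13.4 ± 1.63 to 23.4 ± 1.82 FPKM and PSMG2 from 7.52 ± 0.24 to 9.24 ± 0.28, while PSMG1 and PSMG4 fell (SD, n = 3). PSME4 fell by 0.56 and PSMD5 by 0.47 on the log2 scale. PSME1, PSME2, PSME3 and PSMF1 did not pass.

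The vector and GPD1 metformin comparisons share no library, and 20 members were lower in both, which is 20 of the 29 in vector cells and 20 of the 24 in GPD1 cells. These 20 are 42.6% of the 47 members, and 35.1% of all genes were lower in both. Another 4 members (8.51%) were higher in both, PSMA6, PSMC6, PSMD8 and PSMG3, against 19.7% of all genes. PSMB7 and PSMB9 were lower in vector cells and higher in GPD1 cells, as were 1.55% of all genes, and PSMC4 and PSMD6 were higher in vector cells and lower in GPD1 cells, as were 4.78%. None of these 4 turns held in both comparisons under all 3 scalings. The number of members lower in both was 10 with median-ratio scaling and 34 with totals without mitochondrial genes, where 23.3% and 51.8% of all genes were lower in both.

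**Figure D3:**
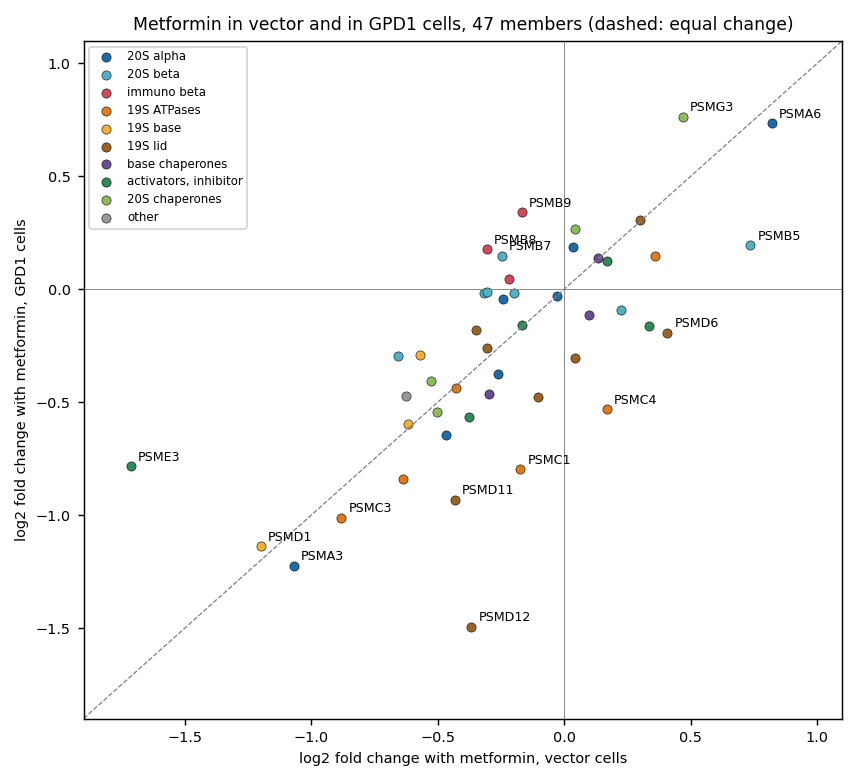
Log2 fold change with metformin in vector cells (x axis) and in GPD1 cells (y axis) for the 47 tested genes, each point 1 gene coloured by role; the dashed line marks equal change. PSMD12 lies farthest below the line, at -0.37 and -1.49, and PSMB5 also lies below it, at 0.74 and 0.20.

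Without metformin, GPD1 cells differed from vector cells in few proteasome genes. Of the 47 members 5 were higher, PSMB9, PSMC4, PSMD8, PSME1 and PSME2, and 1 was lower, PSMD4, with a median of -0.02. Over all genes 21.3% passed, 9.99% higher and 11.3% lower, and the median was -0.01. The groups did not overlap for 18 members, against 41.4% of all genes.

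PSME1 was at 23.0, 24.8 and 21.7 FPKM in vector cells and at 28.3, 31.1 and 29.2 in GPD1 cells. Its partner PSME2 was at 6.14, 6.09 and 6.22 and at 7.79, 7.602 and 7.65. Both 11S genes were higher in every GPD1 library, 1.27-fold and 1.25-fold (limma adjusted p = 0.00139 and 0.0164). The ATPase PSMC4 (ENSG00000013275, chr19:39971005-39981441) was at 44.9, 42.8 and 43.5 FPKM in vector cells and at 53.0, 54.9 and 55.8 in GPD1 cells. PSMD8 was at 32.3, 28.97 and 30.5 and at 35.4, 35.3 and 36.6. No library of one group reached the other for either gene, at 1.25-fold and 1.17-fold (limma adjusted p = 0.00123 and 0.00425). PSMB9 was at 3.70, 3.54 and 4.17 FPKM in vector cells and 4.31, 4.55 and 4.95 in GPD1 cells (limma adjusted p = 0.0388), a call kept in 10 of 22 alternatives. The summed leukocyte markers were at 1.17 to 1.43 FPKM in untreated vector cells and 7.14 to 12.2 in untreated GPD1 cells, and their part in this value was not tested. PSMD4 fell from 25.1 ± 0.40 to 22.6 ± 0.50 FPKM (SD, n = 3, limma adjusted p = 0.0303), and this call was lost with median-ratio scaling and without any 1 of 5 libraries. PSME2 was no longer called without vector untreated replicate 2 or without GPD1 untreated replicate 1, where the highest adjusted p was 0.0525. None of the 14 constitutive core genes passed.

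With metformin in both kinds of cell, GPD1 and vector cells differed in 27 members, 14 higher and 13 lower in GPD1 cells, at a median of 0.03. Over all genes 60.0% passed, 25.0% higher and 35.0% lower, with a median of -0.05. The groups did not overlap for 31 members, against 64.8% of all genes. The split moved with the scaling, to 18 higher and 11 lower under median-ratio scaling, 20 and 9 under upper-quartile scaling, and 9 and 14 with totals without mitochondrial genes. Of these calls, 9 of the 14 higher and 9 of the 13 lower were kept under all 22 alternatives. Without GPD1 metformin replicate 1 the number higher was 9. This comparison shares its vector libraries with the metformin comparison in vector cells and its GPD1 libraries with that in GPD1 cells, so its values are not separate evidence.

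All 3 immunoproteasome genes were higher in GPD1 cells under metformin. PSMB9 was at 3.59, 3.21 and 3.02 FPKM in vector cells and at 6.12, 5.97 and 6.16 in GPD1 cells. PSMB8 was at 2.90, 2.40 and 2.72 and at 4.13, 5.32 and 4.91, and PSMB10 at 2.43, 2.50 and 3.23 and at 3.84, 3.73 and 3.94. No vector library reached a GPD1 library for any of the 3, with folds of 1.86, 1.79 and 1.41 (limma adjusted p = 4.70e-06, 6.48e-05 and 0.000842). These calls were kept under all 22 alternatives. The summed level of 8 leukocyte markers moved in the same direction, from 0.402 to 0.541 FPKM in vector cells with metformin to 9.11 to 9.85 in GPD1 cells with metformin. CD14, a monocyte receptor, was at 0.111, 0.115 and 0.161 FPKM in those vector libraries and at 8.74, 8.002 and 8.33 in those GPD1 libraries, while PTPRC was near 0 in every group and CD3E and MS4A1 were at 0. The part of these markers in the immunoproteasome values was not tested.

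The 11S genes PSME1 and PSME2 were higher too, 1.23-fold and 1.26-fold, as were the constitutive catalytic genes PSMB6, from 31.1 ± 0.89 to 42.2 ± 1.89 FPKM, and PSMB7, from 52.6 ± 1.34 to 66.8 ± 1.35 (SD, n = 3). PSMD8 was 1.17-fold higher. Those 5 calls were kept under all 22 alternatives.

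Lower in GPD1 cells were PSMB5, at 52.8, 44.3 and 53.1 FPKM in vector cells and 37.4, 37.4 and 37.2 in GPD1 cells, 1.34-fold lower with no overlap (limma adjusted p = 0.0015). PSMD12 was 2.80-fold lower (log2 -1.19 ± 0.06 SE, limma adjusted p = 4.12e-08) and PSMD11 1.58-fold lower. PSMD6 fell from 6.44 ± 0.34 to 4.21 ± 0.21 FPKM and PSMD7 from 15.6 ± 1.84 to 10.9 ± 0.46 (SD, n = 3). In all, 5 of 8 lid subunits and 3 of 6 ATPases were lower. PSMF1 was lower as well, at 11.1, 13.1 and 12.6 FPKM in vector cells and 7.10, 11.2 and 8.33 in GPD1 cells. One GPD1 library lay just above the lowest vector library, and the call (limma adjusted p = 0.0451) was kept in 10 of 22 alternatives.

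The test of the difference between the metformin effects in GPD1 and vector cells asked which members responded differently. It called 18 of the 47, 7 with a higher and 11 with a lower value in GPD1 cells, against 45.9% of all genes, 19.1% higher and 26.8% lower. The median was 0.00 for the members and -0.04 for all genes. Without mitochondrial genes in the totals the counts were the same 7 and 11. With median-ratio scaling they were 12 and 6, and with upper-quartile scaling 16 and 6.

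PSMD12 had the largest called interaction, -1.13 ± 0.08 SE on the log2 scale (limma adjusted p = 2.48e-06), and it ranged from -1.38 to -1.02 over the alternatives. Of the 17 cap genes 8 were lower by this test and 1, PSMD4, was higher at 0.28. With median-ratio scaling 5 cap genes were lower and 1 higher, and with upper-quartile scaling 5 and 3. The cap median was -0.21 as deposited, -0.13 with median-ratio scaling and -0.08 with upper-quartile scaling. After PSMD12 came PSMC4 at -0.70 and PSMC1 at -0.62 (limma adjusted p = 2.33e-05 and 0.000461). In the lid PSMD6 was at -0.60, PSMD11 at -0.50, PSMD13 at -0.38 and PSMD7 at -0.35. The call of PSMD11 was lost in 10 of 21 alternatives and that of PSMD7 in 8, among them median-ratio and upper-quartile scaling and single libraries left out. PSMD1, PSMD2, PSMC2 and PSMC3, which fell in both kinds of cell, were not called, with values between -0.21 and 0.06.

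In the beta ring the catalytic genes split. PSMB5 had a value of -0.54 ± 0.12 SE (limma adjusted p = 0.00352), PSMB7 one of 0.40 ± 0.06 (0.000402) and PSMB6 one of 0.29 ± 0.07 (0.00743), a call lost with the length trend removed. The inducible genes PSMB8 and PSMB9 were at 0.48 and 0.51 (limma adjusted p = 0.00781 and 0.00143), and PSMB10 did not pass at 0.26 (0.0553). PSMB4 was higher at 0.18, a call lost in 5 of 21 alternatives, and PSMB1 lower at -0.32, a call lost with median-ratio and upper-quartile scaling. No alpha subunit and no activator gene was called. Of the chaperones PSMG2 was higher at 0.22 and PSMD5 lower at -0.17, the latter kept in 6 of 21 alternatives.

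Ratios within a library do not depend on its scaling, and they were chosen after the values above were seen. They can depend on a trend with exon length. Over 12586 genes, exon length and the log2 change with metformin had a Spearman rho of -0.17 in vector cells and -0.24 in GPD1 cells. Over the 47 members rho was -0.13 and -0.37. The part of exon length in the ratios was not tested. The cap sum leaves out ADRM1 and SEM1, which the name rule did not take and which rose with metformin in both kinds of cell. ADRM1 was at 33.9 to 37.9 FPKM in untreated vector cells and 56.7 to 61.3 with metformin. In GPD1 cells it was at 35.0 to 37.4 and 44.7 to 47.1. A ratio with these 2 genes was not computed, and they would make the fall smaller. The summed FPKM of the cap divided by that of the core was 0.696 ± 0.016 in untreated vector cells and 0.604 ± 0.014 with metformin. For GPD1 cells this ratio was 0.726 ± 0.008 untreated and 0.522 ± 0.011 with metformin (SD, n = 3). Neither pair of groups overlapped, and the exact permutation test gave p = 0.1 (two-sided), the smallest that 3 against 3 libraries allow. The summed core was 426.0 ± 5.33 and 408.6 ± 1.97 FPKM in vector cells and 421.8 ± 7.11 and 426.8 ± 3.30 in GPD1 cells. The summed cap went from 296.4 ± 9.97 to 246.7 ± 5.02 and from 306.3 ± 2.15 to 222.9 ± 6.51. As folds the cap sums were 0.832 in vector cells and 0.728 in GPD1 cells as deposited, and 0.992 and 0.919 with median-ratio scaling. With totals without mitochondrial genes they were 0.649 and 0.563. The core sums had folds of 0.959 and 1.01 as deposited, and 1.14 and 1.28 with median-ratio scaling. With totals without mitochondrial genes the core folds were 0.748 and 0.782.

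PSMB8 over PSMB5, the inducible against the constitutive chymotrypsin-like subunit, was 0.117, 0.121 and 0.12 in untreated vector cells and 0.0549, 0.0542 and 0.0512 with metformin. In GPD1 cells it was 0.124, 0.114 and 0.143 without metformin and 0.111, 0.142 and 0.132 with it. Only vector cells with metformin stood apart, 2.23-fold below untreated vector cells (exact permutation p = 0.1, two-sided). PSMB9 over PSMB6 was 0.108 ± 0.011 in untreated GPD1 cells and 0.145 ± 0.009 with metformin (SD, n = 3), and the groups overlapped in vector cells. PSMB10 over PSMB7 was 0.0529 ± 0.0034 in untreated vector cells and 0.0516 ± 0.00706 with metformin. In GPD1 cells that ratio was 0.0613 ± 0.00273 and 0.0574 ± 0.00165, and treated and untreated libraries overlapped in both kinds of cell. PSME1 over PSME2 was 3.77 ± 0.30 and 4.90 ± 0.50 in vector cells and 3.84 ± 0.23 and 4.77 ± 0.52 in GPD1 cells. PSMD12 over PSMD14, both of the lid, was 0.690 ± 0.019 in untreated GPD1 cells and 0.238 ± 0.016 with metformin.

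**Figure D4:**
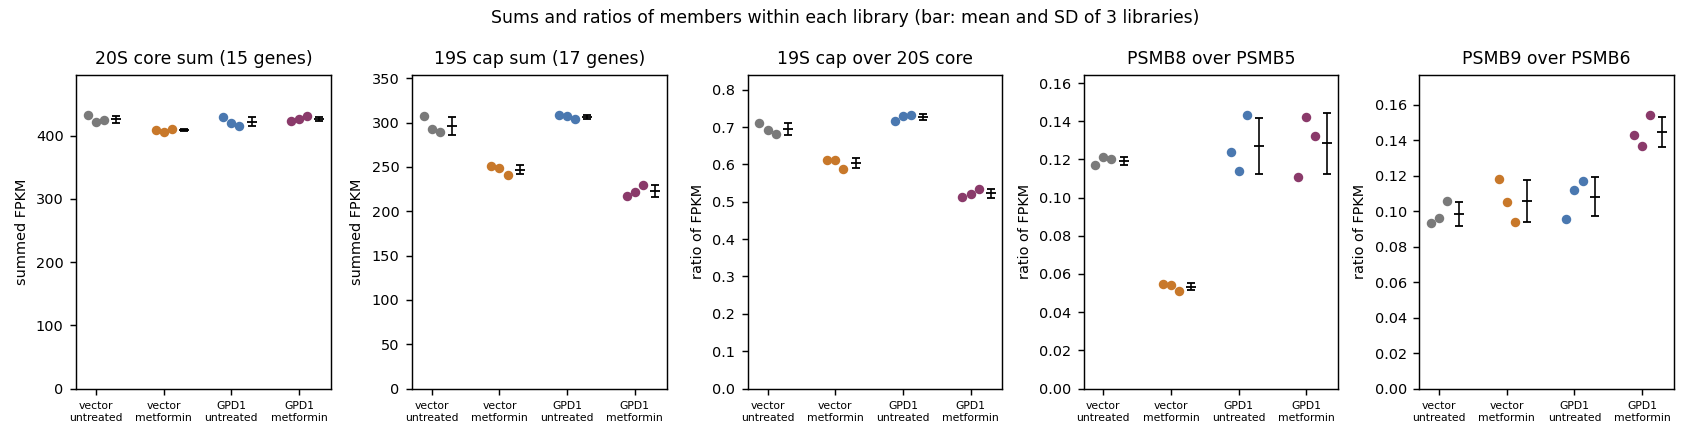
Summed FPKM of the 20S core and the 19S cap, and ratios of FPKM within a library (y axes, no unit), for the 4 groups; each point is 1 library and each bar gives the mean and SD of 3 libraries. The cap over core ratio is lowest in GPD1 cells with metformin, at 0.512 to 0.534. PSMB8 over PSMB5 is lowest in vector cells with metformin, at 0.0512 to 0.0549. The cap here leaves out ADRM1 and SEM1.

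Genes that work with the proteasome were counted in lists, to be read beside the shares of all genes, 31.3% higher and 43.3% lower with metformin in vector cells and 26.1% and 48.0% in GPD1 cells. Of 5 subunits and chaperones with other names, 2 were higher and 2 lower with metformin in vector cells, and 2 and 3 in GPD1 cells, which with median-ratio scaling became 2 and 1 in each. ADRM1, a ubiquitin receptor of the base, was at 37.9, 33.9 and 35.3 FPKM and rose to 57.9, 61.3 and 56.7 in vector cells. In GPD1 cells it went from 37.4, 37.2 and 35.0 to 47.1, 44.7 and 46.6. All treated libraries were higher in both, at log2 0.70 and 0.33, and the difference of -0.37 passed (limma adjusted p = 0.00155). SEM1, a small lid subunit, rose in both by 0.28 and 0.40, and PAAF1, which binds ATPases of the base during assembly, fell in both by 0.60 and 0.35. POMP, the 20S maturation factor, fell with metformin in GPD1 cells by 0.44 (limma adjusted p = 0.0226) and stood at 0.13 in vector cells without passing.

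In the NFE2L1 pathway, 7 of 9 genes were higher and 1 lower with metformin in vector cells, against 3 and 2 in GPD1 cells. With median-ratio scaling these counts were 7 and 1, and 6 and 2, and with totals without mitochondrial genes 5 and 1, and 2 and 4. With metformin, 5 of the 9 were lower in GPD1 than in vector cells and 1 was higher, against 35.0% and 25.0% of all genes. DDI2, the protease that cleaves NFE2L1, was at 3.52, 3.53 and 3.75 FPKM and rose to 8.39, 7.598 and 7.09 in vector cells. In GPD1 cells it was at 3.17, 2.998 and 3.25 and at 3.34, 3.48 and 2.58. As deposited it was higher in the treated vector libraries alone, with an interaction of -0.93 ± 0.12 SE (limma adjusted p = 0.000119). In GPD1 cells DDI2 was also called higher with median-ratio scaling, at 0.25 (limma adjusted p = 0.0181). The same held with the length trend removed, at 0.20 (limma adjusted p = 0.0459). MAFK, a small Maf partner of NFE2L1, rose from 26.6 ± 1.87 to 153.4 ± 4.12 FPKM in vector cells and from 25.2 ± 2.74 to 67.3 ± 6.79 in GPD1 cells (SD, n = 3). SYVN1, an endoplasmic reticulum ubiquitin ligase, rose by 0.73 in vector cells and fell by 0.43 in GPD1 cells. NFE2L1 itself rose by 0.30 in vector cells (limma adjusted p = 0.00948), stood at 0.00 in GPD1 cells, and was at -0.03 in vector cells with totals without mitochondrial genes; its interaction did not pass (-0.30, limma adjusted p = 0.0724).

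Among 11 shuttle factors and p97 genes tested, 4 rose and 5 fell with metformin in vector cells, and 5 and 5 in GPD1 cells; with totals without mitochondrial genes 1 rose and 6 fell in each. The unfoldase VCP, which extracts ubiquitin-tagged proteins for the proteasome, was at 65.5, 66.7 and 64.4 FPKM and fell to 43.4, 42.7 and 39.6 in vector cells. In GPD1 cells it went from 61.1, 62.6 and 62.3 to 20.1, 22.1 and 21.4. Its cofactor NPLOC4 fell by 0.46 and by 1.52 on the log2 scale. Both were lower in every treated library, and the fall was larger in GPD1 cells, with interactions of -0.87 and -1.05 (limma adjusted p = 3.16e-06 and 1.08e-06).

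Of 9 genes for ubiquitin recycling and proteasome regulation, 2 rose and 4 fell in vector cells, and 2 and 7 in GPD1 cells; with median-ratio scaling these were 4 and 4, and 2 and 4. UBE3C, a proteasome-bound ubiquitin ligase, fell by 1.00 and 1.42. ZFAND5, an activator of the particle, rose by 0.72 in vector cells and fell by 0.36 in GPD1 cells, and AKIRIN2, which carries proteasomes into the nucleus, stood at 0.18 without passing and fell by 0.40. Of 6 ubiquitin and E1 genes, 2 rose and 2 fell in vector cells and 3 and 2 in GPD1 cells, and with median-ratio scaling 3 rose and none fell in vector cells. The polyubiquitin gene UBB was at 50.4 ± 3.02 and 51.6 ± 2.90 FPKM in vector cells and rose from 55.7 ± 7.12 to 89.7 ± 2.06 in GPD1 cells (SD, n = 3).

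Class I antigen processing uses the peptides that the proteasome makes. Of 8 tested genes of 10 listed, 4 rose and 3 fell with metformin in vector cells, and 4 rose and none fell in GPD1 cells, where 8 rose with median-ratio scaling and 3 fell with totals without mitochondrial genes. The peptide transporter TAP1 rose in both, from 7.39 ± 0.10 to 19.1 ± 0.49 FPKM and from 7.90 ± 0.91 to 19.1 ± 0.93 (SD, n = 3), and its difference between GPD1 and vector cells with metformin did not pass (log2 0.00 ± 0.07 SE, limma adjusted p = 0.977). The peptide-loading gene TAPBP and the trimming peptidase ERAP1 fell in vector cells by 0.46 and 0.56 and stood at 0.07 and 0.04 in GPD1 cells, with interactions of 0.53 and 0.60 that passed. Of 10 interferon signalling genes, 3 rose and 4 fell in vector cells, and 5 and 4 in GPD1 cells; with median-ratio scaling 6 rose and 3 fell in vector cells, and with totals without mitochondrial genes 3 rose and 6 fell in GPD1 cells.

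Some members share reads with other loci, and the strand of the libraries is not stated. PSMC1P1 (ENSG00000241506, chr3:68635705-68637024), a processed copy of PSMC1, stood at 28.4 to 79.4 FPKM and so above PSMC1 itself. With the reads of PSMC1 and its copies joined, the fall with metformin was 0.40 in vector cells and 1.1 in GPD1 cells on the log2 scale. Of the 32 named copies of members in the table, 3 averaged at least 1 FPKM. A gene on the other strand with at least 1 FPKM overlapped 17 of the 47 tested members, among them PSMB8 and PSMB9, which overlap each other, and PSMB9 with TAP1, and without strand information reads in the shared stretches cannot be told apart.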

How the data were processed

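RNA-seq of 12 A549 libraries was used, and the 12 of the kidney line 786-O in the same series of 24 samples were not analysed here. Before deposit the authors made FPKM values per gene from reads handled with CASAVA 1.8, HISAT2 2.1.0 and edgeR on GRCh38/hg38, per the submitters' processing notes for the tools; the unit is inferred from the values, since the deposited table names none, and it may be RPKM. The test took in the 12607 genes that averaged 1 FPKM or more. It used limma 3.58.1 (R 4.3.3) on log2(FPKM + 1), with a mean for each of 4 groups and a mean-variance trend, and p-values were Benjamini-Hochberg adjusted over all of them at 0.05. The scripts were tested on simulated data. Sums, ratios and exact permutation tests used Python 3.11.15, pandas 2.3.3 and scipy 1.17.1. The members and lists were chosen with earlier results of these data known. The fullest values were planned, per comparison and direction, for up to 5 called members with the largest change. Only members that averaged at least 5 FPKM and, outside the interaction, showed no overlap were eligible. The immunoproteasome subunits, PSMB5, the activators, PSMF1 and PSMC3IP were added. Other members could also be named, and are given by group mean, log2 value or range, some with an adjusted p-value. In every other list, naming was open to the 2 genes of smallest p per comparison and direction, together with POMP, ADRM1, SEM1, NFE2L1, DDI2 and TAP1; those printed were picked from them after their values were seen. Alternatives were 3 scalings, no filter, a pseudocount of 0.1, fewer groups or genes, a length correction, a replicate block, and each library left out; joining named copies was added after seeing the data.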

Additional observations from a re-analysis of the deposited data

Results flagged for a closer look

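The change with metformin differed between GPD1 and vector cells, by the limma interaction test at an adjusted p under 0.05, for 18 of the 47 members. Each value is the log2 change in GPD1 cells minus that in vector cells. In the core, PSMB1 was at -0.32, PSMB4 at 0.18, PSMB5 at -0.54, PSMB6 at 0.29 and PSMB7 at 0.40. The immunoproteasome subunits PSMB8 and PSMB9 were at 0.48 and 0.51. The ATPases PSMC1, PSMC4 and PSMC6 were at -0.62, -0.70 and -0.21. The other cap subunits were PSMD4 at 0.28, PSMD6 at -0.60, PSMD7 at -0.35, PSMD11 at -0.50, PSMD12 at -1.13 and PSMD13 at -0.38. The chaperones PSMD5 and PSMG2 were at -0.17 and 0.22.

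Among genes that act with the proteasome, the same test called ADRM1 at -0.37, PAAF1 at 0.25, UBE3C at -0.42, AKIRIN2 at -0.58 and ZFAND5 at -1.08. In the NFE2L1 pathway DDI2 was at -0.93, MAFK at -1.10 and SYVN1 at -1.15. UBB was at 0.65, VCP at -0.87, NPLOC4 at -1.05, TAPBP at 0.53 and ERAP1 at 0.60.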

How the results depend on the processing

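All values are log2 differences or counts of members, as in the report. With median-ratio scaling the counts with metformin in vector cells were 15 higher and 13 lower, those in GPD1 cells 19 and 16, the number lower in untreated GPD1 cells was 0, and the interaction had 12 higher and 6 lower. With upper-quartile scaling the number higher with metformin in GPD1 cells was 13 and the interaction had 16 higher and 6 lower. With totals without mitochondrial genes 2 members were higher in vector cells, 2 higher and 39 lower in GPD1 cells, 3 lower in untreated GPD1 cells, and 9 higher in GPD1 cells under metformin. In untreated GPD1 cells 2 were lower with protein-coding genes alone and 2 with the length trend removed. The members' median minus the all-gene median with metformin in GPD1 cells was -0.15 without the filter, against 0.00 as reported.

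With single libraries left out, the numbers higher and lower were 8 to 10 and 25 to 29 for metformin in vector cells, 8 to 10 and 22 to 25 in GPD1 cells, 3 to 5 and 0 to 2 for untreated GPD1 cells, 9 to 15 and 12 to 14 for GPD1 cells under metformin, and 6 to 10 and 8 to 11 for the interaction. The median minus the all-gene median ranged from -0.17 to -0.11, -0.06 to 0.01, -0.01 to 0.03, 0.03 to 0.11 and 0.01 to 0.05 in that order. The 9 higher came without GPD1 metformin replicate 1 and the 3 higher without vector untreated replicate 2. The 0 lower came without vector untreated replicate 1, 2 or 3 or GPD1 untreated replicate 1 or 3, and the 2 lower without vector metformin replicate 1 or 3.

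Called values that changed sign, or values near 0 that did, were these. For metformin in vector cells with median-ratio scaling, PSMB4 was at 0.043, PSMB9 at 0.029, PSMB7 at 0.002 and PSMC1 at 0.021; with totals without mitochondrial genes, PSMG2 was at -0.28, PSMA7 -0.32, PSMD8 -0.049, PSMB1 -0.13, PSMD7 -0.30, PSMC4 -0.18, PSME1 -0.17, SEM1 -0.006, NFE2L1 -0.033 and UBB -0.32. For metformin in GPD1 cells with median-ratio scaling, PSMB4 was at 0.30, PSMB3 0.31, PSMA1 0.27, PSMA2 0.29, PSMB1 0.24, PSMB2 0.015, PSMD14 0.047, PSMB6 0.31, PSMD3 0.14, PSMD4 0.029, PSMD7 0.007, PSMD6 0.083, DDI2 0.25 and GPD1 0.10. There PSMB4 was at 0.11 with upper-quartile scaling, and with totals without mitochondrial genes PSMG2 was at -0.065, PSMB10 -0.25, PSMA7 -0.18, PSMD8 -0.057, PSMB7 -0.22, PSMC6 -0.16, PSME1 -0.24, ADRM1 -0.033, NFE2L1 -0.34, TAPBP -0.27 and ERAP1 -0.24. With the length trend removed PSMA7 was at -0.006, PSMB7 at -0.036 and DDI2 at 0.20. A scaling shifts all genes of a library alike; other causes were not tested.

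The deviations of same-numbered libraries showed little correlation (r from -0.07 to 0.06). A low correlation cannot show whether the numbers mark a shared culture or day, which the labels do not say. With the replicate block the numbers higher and lower were 9 and 27, 8 and 24, 4 and 1, 12 and 12, and 8 and 10 in the order above. The fewest implied reads of a tested member in any 1 library were 45 for PSMC3IP and 74 for PSMB10.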
